A study of Mus musculus with 18 samples.

Results

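The tricarboxylic acid (TCA) cycle and the breakdown of branched-chain amino acids were followed through 43 genes among the 24421 gene symbols counted in each of 18 mouse left-ventricle libraries. The genes were taken by name from a list and comprise 18 genes of the cycle, 5 of pyruvate entry, 6 of the first branched-chain steps and their control, 11 of the later branched-chain steps, and 3 others (Got1, Got2 and Adhfe1). The study compared 6 groups of 3 libraries each, all from C57BL/6J mice: Sesn2-knockout (Sesn2-KO) hearts after ischaemia-reperfusion (IR) or sham surgery, aged wild-type (WT) hearts after IR or sham surgery, and young WT hearts after IR or sham surgery. Sesn2 encodes sestrin 2, a stress-induced protein that acts on AMPK and mTORC1 signalling. Sesn2-KO and young WT mice were 3 to 4 months old and aged WT mice 24 to 26 months old. For IR, the left anterior descending coronary artery was tied off for 45 min and blood flow was then restored for 24 h. Sham mice had a thoracotomy in which the artery was not tied. Sesn2-KO mice were bred in the authors' own colony, aged mice came from Charles River and young mice from The Jackson Laboratory, so the source of the animals changes with age and genotype and cannot be told apart from them. The labels do not give the part of the ventricle taken or the sex of the mice.

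The TCA cycle oxidises acetyl-CoA in the mitochondrial matrix and passes the electrons to the respiratory chain. Pyruvate dehydrogenase makes acetyl-CoA from pyruvate, and pyruvate carboxylase makes oxaloacetate from it. Leucine, isoleucine and valine first lose their amino group to a branched-chain aminotransferase, then pass through the branched-chain ketoacid dehydrogenase complex, and are broken down in separate branches to acetyl-CoA, acetoacetate and propionyl-CoA, the last of which feeds the cycle as succinyl-CoA. The heart is rich in mitochondria and oxidises mainly fatty acids, with smaller contributions from glucose, ketone bodies and amino acids.

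Gene counts ran from 9404531 to 14458047 per library, and 13859 genes passed the filter on low counts. Sesn2 had 1 to 4 counts in Sesn2-KO IR libraries and 0 to 5 in Sesn2-KO sham libraries. It had 37 to 42 counts in aged IR, 36 to 58 in aged sham, 30 to 56 in young IR and 35 to 86 in young sham libraries, as the genotype labels state. All 12 cardiomyocyte markers were counted in every library and made up 4.15% to 5.95% of gene counts. Long transcripts ran high in 6 libraries, namely replicate 3 of the Sesn2-KO IR, Sesn2-KO sham, aged IR and young IR groups and replicate 1 of the aged sham and young sham groups. They had rank correlations of 0.31 to 0.48 across genes between a gene's deviation from its group mean and its transcript length. Such deviations cannot show length trends that differ between groups. Slopes of log2 CPM on log2 length were 0.085 to 0.30 in young sham and 0.11 to 0.27 in aged sham libraries. After IR the slopes were 0.065 to 0.21 in young and 0.0155 to 0.19 in aged libraries. In Sesn2-KO libraries the slopes were 0.0049 to 0.20 after IR and 0.044 to 0.23 after sham surgery. Young IR library 1 stood apart from the other young IR libraries in the genes described here. Medians of the members and most further lists, and fold changes of single members that it moved by more than 1.5 times, are given with and without it. Medians of the cell type markers and of the genes of lipoate synthesis are given only with it. Fewer cells of a type and less RNA per cell cannot be told apart in these bulk samples.

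All 43 genes were well counted and all passed the filter on low counts. Together they held 2.22% to 2.57% of gene counts in Sesn2-KO IR hearts and 2.68% to 2.97% in Sesn2-KO sham hearts. They held 2.67% to 3.03% in aged IR hearts, 3.08% to 3.19% in aged sham hearts, 2.49% to 3.19% in young IR hearts and 3.04% to 3.16% in young sham hearts. Every Sesn2-KO IR library thus lay below every library of the other 5 groups apart from young IR library 3, at 2.49%. Per length of the principal transcript, Idh2, the mitochondrial NADP-dependent isocitrate dehydrogenase, was the most abundant of the 43 in all 6 groups. Idh2 had 1205 ± 208 CPM per kb in Sesn2-KO IR hearts and 1331 ± 82.5 CPM per kb in young sham hearts (SD, n = 3 each). Pcx, pyruvate carboxylase, was the least abundant in all 6 groups, with 13.1 CPM per kb in young sham hearts. In young sham hearts 13 of the 16 most abundant members were cycle genes, at 359 to 1331 CPM per kb. Among them is Mdh1, the cytosolic malate dehydrogenase, which is grouped with the cycle genes throughout. The branched-chain genes ran from 302.6 CPM per kb for Bckdha to 30.3 CPM per kb for Ppm1k.

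**Figure D1:**
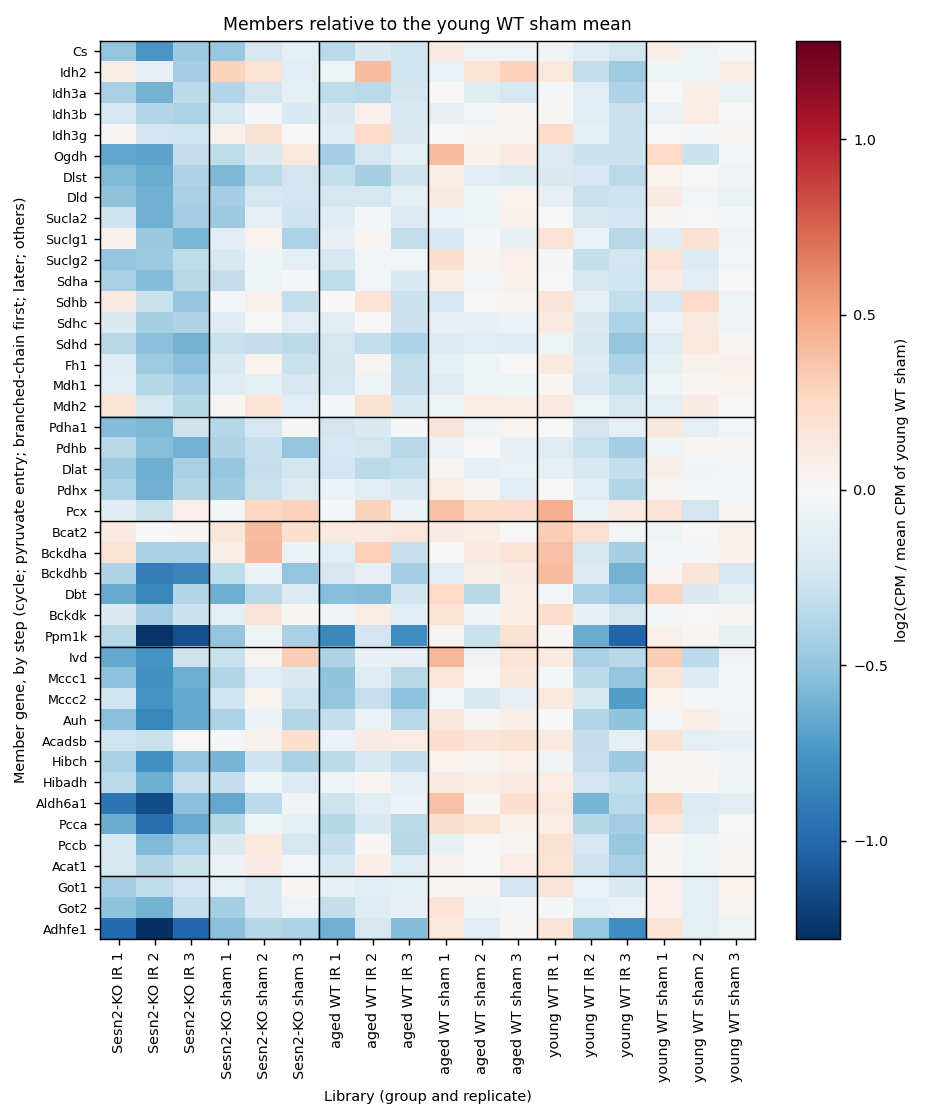
Heat map of the 43 genes (vertical axis, by step) in the 18 libraries (horizontal axis, by group and replicate), coloured by log2 of CPM over the mean CPM of young WT sham libraries. The 3 Sesn2-KO IR libraries are blue for most genes, Ppm1k and Adhfe1 reach the deepest blue there, and young WT IR library 1 is paler or redder than the other young WT IR libraries.

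No member passed the test in any of the 9 comparisons at an adjusted p below 0.05 (edgeR quasi-likelihood, Benjamini-Hochberg over all 13859 genes), although most members had negative fold changes after IR and in Sesn2-KO hearts. The labels tie no library to a litter, surgery day or batch, so p-values measure only the spread between these libraries. A fold change is edgeR's log2 estimate, with its standard error after ±. Members can move together within a library, so counts of members that are negative, lower or without overlap are not counts of separate observations. Between replicates the members' median deviation had a pooled SD of 0.14 (log2 CPM), which limits what the medians below can show.

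In Sesn2-KO hearts, IR against sham gave negative fold changes for 43 of 43 members, with a median of -0.31, against a median of -0.00 over all genes tested, of which 50.7% were negative. No member was called by edgeR, where 0% of all genes were called, and the smallest adjusted p of a member was 0.199. At an unadjusted p below 0.05, 23 members were lower and 0 higher, against 6.52% and 8.18% of all genes. The DESeq2 Wald test called 1 member lower (0.411% of all genes) and limma voom with quality weights called 16 lower (3.75%). In 13 members every IR library lay below every sham library, which 5.49% of all genes also did.

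In aged WT hearts, IR against sham gave negative fold changes for 41 of 43 members, against 49.7% of all genes. Their median was -0.18, against 0.00 over all genes. EdgeR called 0 members, against 7.61% of all genes in either direction, and the smallest adjusted p was 0.0886. At an unadjusted p below 0.05, 9 members were lower and 0 higher, against 9.28% and 14.4% of all genes, while DESeq2 called 1 member lower (4.06% of all genes) and limma voom 10 lower (10.1%). In 20 members every IR library lay below every sham library, against 13.8% of all genes, and in 1, Bcat2, every IR library lay above, against 14.8%.

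In young WT hearts, IR against sham gave negative fold changes for 41 of 43 members, against 49.2% of all genes. Their median was -0.17, against 0.01 over all genes. EdgeR called 0 members, against 6.07% of all genes, and the smallest adjusted p was 0.115. At an unadjusted p below 0.05, 4 members were lower and 0 higher, against 8.18% and 12.8% of all genes. DESeq2 called 1 member lower (3.38% of all genes) and limma voom 13 (7.53%), and 4 members did not overlap, all lower in IR, against 9.63% of all genes. These values depended on young IR library 1: without it the median was -0.32, and 23 members were lower at an unadjusted p below 0.05, against 10.2% of all genes in that fit. Without it edgeR called 5 members lower, against 2.89% of all genes, namely Pdhb, Auh, Hibch, Pcca and Adhfe1. The members held 3.19% of gene counts in that library, against 2.68% and 2.49% in young IR libraries 2 and 3. Leaving it out was bound to lower most of these fold changes, so the fit without it gives no separate evidence of a fall.

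Cell type markers were measured in the same libraries. The 12 cardiomyocyte markers summed to 41535 to 44854 CPM in Sesn2-KO IR hearts and 45776 to 49233 CPM in Sesn2-KO sham hearts. The sums were 44617 to 49567 CPM in aged IR hearts and 56380.5 to 58144 CPM in aged sham hearts, and 46119 to 49251 CPM in young IR hearts and 55508 to 59509.7 CPM in young sham hearts. Their median fold change on IR was -0.11 in Sesn2-KO, -0.27 in aged and -0.26 in young hearts, with 0, 2 and 1 of 12 called lower. The 8 neutrophil markers summed to 91.5 to 171 CPM in Sesn2-KO IR hearts and 38.3 to 90.5 CPM in Sesn2-KO sham hearts. Their sums were 95.2 to 175 CPM in aged IR hearts and 6.57 to 19.4 CPM in aged sham hearts, and 64.7 to 132 CPM in young IR hearts and 5.33 to 7.46 CPM in young sham hearts. Of these markers 8 of 8 were called higher on IR in aged and in young hearts and 0 of 8 in Sesn2-KO hearts. Over all genes edgeR called 5.36% higher and 2.24% lower on IR in aged hearts, and 4.17% higher and 1.9% lower in young hearts. In Sesn2-KO hearts it called 0% of all genes on IR, so counts of 0 there do not set the markers apart. Of 8 fibroblast markers 0, 3 and 4 were called higher on IR in Sesn2-KO, aged and young hearts, of 9 monocyte and macrophage markers 0, 4 and 4 were called higher, and of 8 endothelial markers 0, 1 and 1 were called lower. In young IR library 1 the fibroblast markers summed to 1865 CPM. Young IR libraries 2 and 3 had sums of 4330.5 and 3356 CPM. The part of these shifts in the values of the 43 genes was not tested.

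**Figure D2:**
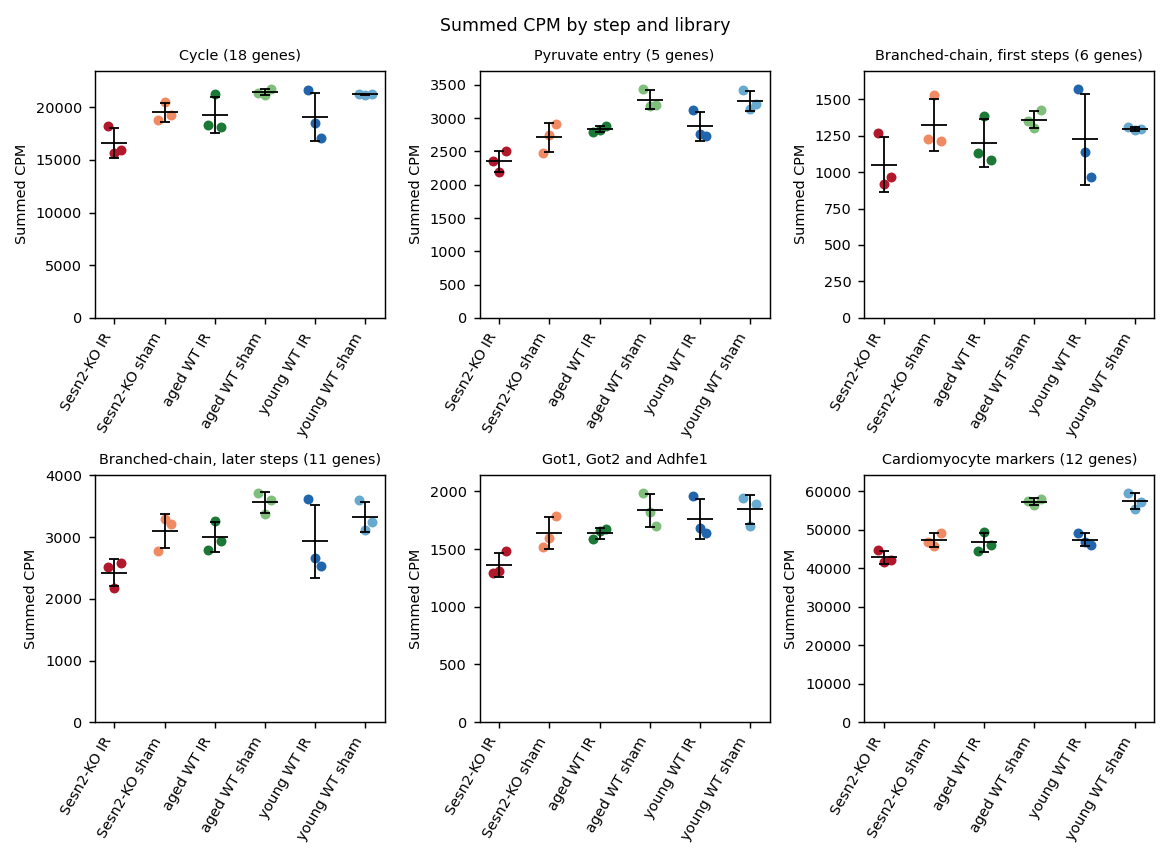
Summed CPM of each step and of 12 cardiomyocyte markers (vertical axes, linear from 0) in the 6 groups (horizontal axes). Points are libraries, bars are the mean and SD of 3 libraries. The later branched-chain steps lie at 2170 to 2584 CPM in all Sesn2-KO IR libraries, below all 15 others except young WT IR library 3, which is at 2531 CPM, and the mean of the cardiomyocyte markers is lowest in the same group.

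Sesn2-KO against young WT hearts after IR gave negative fold changes for 42 of 43 members, against 48.8% of all genes. Their median was -0.32, against 0.01 over all genes. EdgeR called 0 members, against 0.433% of all genes, with a smallest adjusted p of 0.0966, for Adhfe1. At an unadjusted p below 0.05, 23 members were lower and 0 higher (6.15% and 6.53% of all genes). DESeq2 called 6 members lower (0.931% of all genes), namely Cs, Dld, Dlat, Pcca, Got2 and Adhfe1, and limma voom called 2 lower (0.714%), Cs and Adhfe1. In 16 members every Sesn2-KO library lay below every young library, against 4.6% of all genes. Without young IR library 1 the median was -0.17, 36 members were negative and 6 were lower at an unadjusted p below 0.05, against 3.75% of all genes.

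After sham surgery, Sesn2-KO against young WT hearts gave negative fold changes for 34 of 43 members, against 46.7% of all genes. Their median was -0.16, against 0.02 over all genes. EdgeR called 0 members, against 5.11% of all genes, and the smallest adjusted p was 0.0518, for Pdhb. At an unadjusted p below 0.05, 8 members were lower and 1 higher (7.99% and 11% of all genes). DESeq2 called 5 members lower (3.47% of all genes), namely Dlst, Dld, Pdhb, Dlat and Hibch, and limma voom called 10 lower (6.74%). In 13 members every Sesn2-KO library lay below every young library, against 10.5% of all genes, and in 1, Bcat2, every one lay above, against 14.9%. In the same comparison 8 of 8 neutrophil markers were called higher and the median of the cardiomyocyte markers was -0.22, with 0 of 12 called. The comparisons within IR and within sham share no library with each other. Each shares its young libraries with the comparison of IR and sham in young hearts. Likewise, each shares its Sesn2-KO libraries with the comparison of IR and sham in Sesn2-KO hearts, so these comparisons are not separate evidence.

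Aged against young WT hearts gave fold changes of either sign. After sham surgery the median fold change was 0.03, with 15 members negative and 28 positive, and after IR it was 0.01, with 18 negative and 25 positive. Of all genes, 51.8% were negative after sham surgery and 51.2% after IR. EdgeR, DESeq2 and limma voom each called 0 members in both comparisons, against 0.152%, 0.317% and 1.33% of all genes after sham surgery and 0.0649%, 0.238% and 0.137% after IR. There were 0 members at an unadjusted p below 0.05 by edgeR in either comparison, against 4.44% of all genes after sham surgery and 3.99% after IR. The members' fold changes lay between -0.15 and 0.28 after sham surgery and between -0.18 and 0.28 after IR. Without overlap after sham surgery, Pcx and Hibadh lay higher in aged than in young hearts, against 5.71% of all genes. Mccc2 lay lower, against 6.57%. Without young IR library 1 the median after IR was 0.18, with 1 member negative.

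The difference between IR responses was tested directly. For Sesn2-KO minus young WT, 37 of 43 members were negative, against 54.5% of all genes. Their median was -0.16, against -0.03 over all genes. EdgeR called 0 members (0.0577% of all genes), as did DESeq2 (0.216%) and limma voom (0.0866%). There were 2 members at an unadjusted p below 0.05, Bcat2 and Pcx, against 5.55% of all genes. Without young IR library 1 the median was 0.03, with 20 members negative. For aged minus young WT, 24 members were negative, against 50.4% of all genes, with a median of -0.01 against -0.00 over all genes. None was called by any of the 3 tools, each of which called 0% of all genes, and 0 had an unadjusted p below 0.05, against 1.1% of all genes. Leaving out young IR library 1 gave a median of 0.16.

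**Figure D3:**
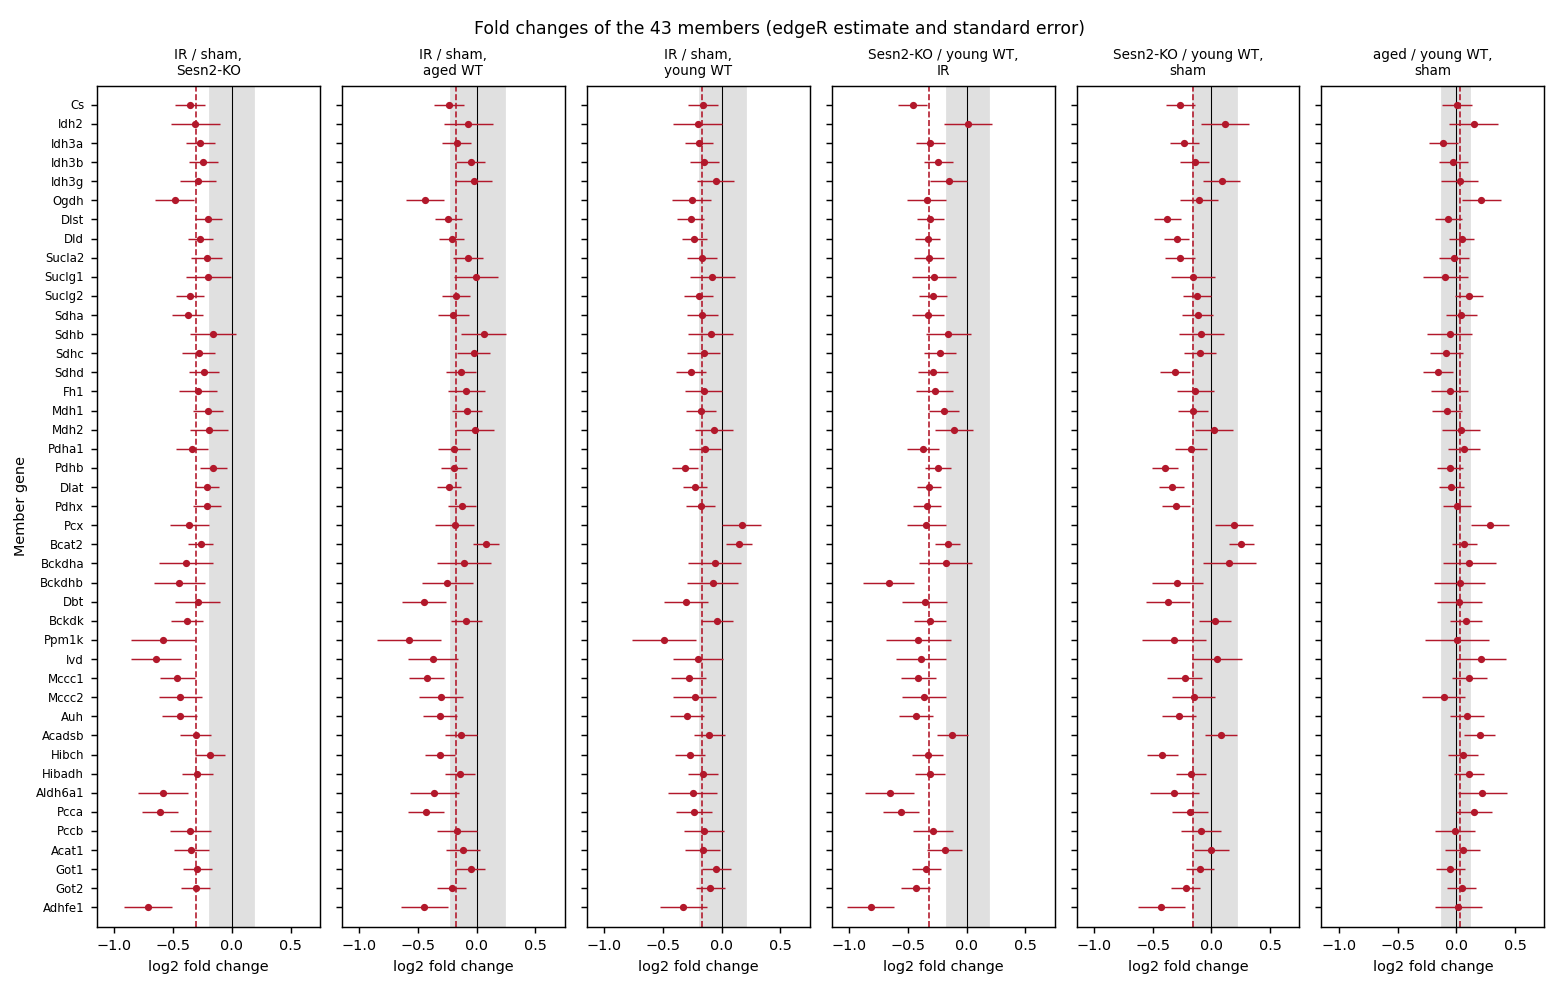
Fold changes (horizontal axes, log2) of the 43 genes (vertical axis) in 6 comparisons, with edgeR's standard error as bars. Grey bands span the middle quartiles of all genes tested and dashed lines mark the members' medians, which lie at -0.31, -0.18 and -0.17 for IR in Sesn2-KO, aged and young hearts, at -0.32 and -0.16 for Sesn2-KO against young WT after IR and after sham surgery, and at 0.03 for aged against young WT after sham surgery.

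The promoters of the members were read for the recognition cores of the oestrogen-related receptors and of nuclear respiratory factor 1, which are known to act on mitochondrial genes. RefSeq promoters on GRCm38.p6, from 250 bases before to 50 after each start, were at hand for 38 of the 43 members, with 48 promoters in all. In 36 of the 48 the bases after the start lay in an annotated transcript of the gene. The receptors' core AAGGTCA, searched on both strands, stood in 3 of 48 (6.25%), against 4.72% of all 32851 promoters, and the nuclear respiratory factor core GCATGCGC in 4 of 48 (8.33%), against 2.71%. The searched cores do not overlap each other. The windows with a match are printed to show which members carry a core, with the core in capitals and each window read in the direction of its core, from 5′ to 3′.
Sdhd (chr9:50603800-50603824, + strand): agggctcAAGGTCActctacaaccc
Ogdh (chr11:6292154-6292182, - strand): ccgcaggcaccAAGGTCAgcgccgtgtcc
Got1 (chr19:43524833-43524855, - strand): cccagAAGGTCAggaggttgtcc
Sdhb (chr4:140961206-140961235, + strand): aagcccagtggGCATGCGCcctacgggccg
Pccb (chr9:101034901-101034930, + strand): cacctcaggacGCATGCGCagagagcgtag
Ogdh (chr11:6292532-6292561, - strand): agttgagttacGCATGCGCacaacacctag
The last of these lies in 2 overlapping Ogdh promoters and is counted for both among the 4 of 48. By gene, each core stood in 3 of the 38 members. A match describes the letters in these windows and shows no binding.

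Among the 18 cycle genes, 7 were lower without overlap in Sesn2-KO than in young WT hearts after either surgery, against 4.6% of all genes after IR and 10.5% after sham surgery, and Cs, Dlst, Dld and Sucla2 were among the 7 both times. Citrate synthase, encoded by Cs (chr10:128337734-128362479, + strand, GRCm38), condenses acetyl-CoA with oxaloacetate. Cs had 1145, 966 and 1172 CPM in Sesn2-KO IR hearts and 1159.8, 1397 and 1488 CPM in Sesn2-KO sham hearts. In aged hearts Cs had 1279.7, 1427 and 1364 CPM after IR and 1750, 1554 and 1548 CPM after sham surgery. In young hearts Cs had 1574, 1459 and 1374 CPM after IR and 1716, 1549 and 1601 CPM after sham surgery. All Sesn2-KO libraries lay below all young libraries of the same surgery, and all aged IR libraries below all aged sham libraries, whereas IR and sham overlapped in Sesn2-KO and in young hearts. Sesn2-KO against young WT gave a fold change of -0.46 ± 0.13 after IR and -0.26 ± 0.13 after sham surgery (adjusted p = 0.139 and 0.271). On IR it was -0.36 ± 0.13 in Sesn2-KO, -0.24 ± 0.13 in aged and -0.16 ± 0.13 in young hearts, with adjusted p-values of 0.230, 0.270 and 0.530 by edgeR.

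Oxoglutarate dehydrogenase is a complex of Ogdh, the decarboxylating subunit, Dlst, the succinyltransferase, and Dld, the lipoamide dehydrogenase that the pyruvate and branched-chain complexes share. Dlst had 603, 571 and 683 CPM in Sesn2-KO IR hearts and 598, 699.7 and 757 CPM in Sesn2-KO sham hearts. In aged hearts Dlst had 716, 663 and 739.8 CPM after IR and 934, 812 and 786 CPM after sham surgery. In young hearts Dlst had 779.8, 769 and 699 CPM after IR and 917, 889 and 862 CPM after sham surgery. Sesn2-KO lay below young WT after either surgery, and IR below sham in young and in aged hearts, without overlap, while in Sesn2-KO hearts IR and sham overlapped. Its fold change was -0.37 ± 0.12 for Sesn2-KO against young WT after sham surgery (adjusted p = 0.0718 by edgeR) and -0.20 ± 0.12 on IR in Sesn2-KO hearts (adjusted p = 0.430).

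Dld had 474, 441 and 508 CPM in Sesn2-KO IR hearts and 499.8, 578 and 572 CPM in Sesn2-KO sham hearts. In aged hearts Dld had 582, 580.2 and 619 CPM after IR and 735, 652 and 698 CPM after sham surgery. In young hearts Dld had 627, 555 and 562 CPM after IR and 729, 661 and 638 CPM after sham surgery. The groups overlapped, or did not, in the same comparisons as for Dlst. Dld in Sesn2-KO against young WT hearts had -0.33 ± 0.11 after IR, at an adjusted p of 0.213, and -0.30 ± 0.11 after sham surgery, at an adjusted p of 0.127. Ogdh ranged more widely, from 1434 to 1844 CPM in Sesn2-KO IR hearts and 1827 to 2511 CPM in Sesn2-KO sham hearts. It had 1685 to 2108 CPM in aged IR hearts and 2367 to 3036 CPM in aged sham hearts, and 1893 to 2027 CPM in young IR hearts and 1886 to 2712 CPM in young sham hearts. The highest Ogdh value of each of the 3 sham groups and of the Sesn2-KO IR and aged IR groups was in the library of that group in which long transcripts ran high. Its fold change on IR was -0.49 ± 0.17 in Sesn2-KO, -0.44 ± 0.17 in aged and -0.25 ± 0.17 in young hearts, with adjusted p-values of 0.219, 0.116 and 0.425 by edgeR.

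Succinate dehydrogenase, which is also complex II of the respiratory chain, has 4 subunits. Sdhd, a membrane anchor, had 631, 555 and 531 CPM in Sesn2-KO IR hearts and 662, 655 and 636 CPM in Sesn2-KO sham hearts. In aged hearts Sdhd had 693, 649 and 614 CPM after IR and 715, 729 and 723 CPM after sham surgery. In young hearts Sdhd had 773, 700.2 and 569 CPM after IR and 718, 889 and 814 CPM after sham surgery. All IR libraries lay below all sham libraries in Sesn2-KO and in aged hearts, and the groups overlapped in young hearts. On IR in Sesn2-KO hearts the fold change of Sdhd was -0.24 ± 0.13 (adjusted p = 0.405). The fold change of Sdha, the flavoprotein subunit, on IR was -0.38 ± 0.13 in Sesn2-KO hearts (adjusted p = 0.228), and that of Sdhb, the iron-sulphur subunit, was -0.16 ± 0.19 (adjusted p = 0.741). Suclg2, the GTP-forming beta subunit of succinyl-CoA ligase, had a fold change of -0.36 ± 0.12 on IR in Sesn2-KO hearts (adjusted p = 0.219), where IR and sham did not overlap.

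Idh2 varied widely within groups, at 2440, 2153 and 1718 CPM in Sesn2-KO IR hearts and 2544, 1866 and 1696 CPM in young IR hearts, and its fold change between those groups, 0.01 ± 0.21, was the highest of the 43 (0.23 without young IR library 1). Over the 18 cycle genes the fold change on IR had a median of -0.27 in Sesn2-KO hearts (range -0.49 to -0.16), -0.09 in aged hearts (-0.44 to 0.06) and -0.17 in young hearts (-0.27 to -0.05). The median of Sesn2-KO against young WT was -0.28 after IR and -0.14 after sham surgery. The cycle's median without young IR library 1 was -0.30 on IR in young hearts and -0.14 for Sesn2-KO against young WT after IR. Sdhb in aged hearts was the only cycle gene of the 18 with a positive fold change on IR in any of the 3 groups, at 0.06 ± 0.19, and it was negative, at -0.22, with a length covariate. Sdhd, Ogdh and Sdhb are the cycle genes whose promoter windows are printed above. Non-overlapping lower values on IR were found for 5 of the 18 cycle genes in Sesn2-KO, 7 in aged and 2 in young hearts, against 5.49%, 13.8% and 9.63% of all genes.

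The 5 genes of pyruvate entry had a median fold change on IR of -0.21 in Sesn2-KO, -0.19 in aged and -0.18 in young hearts, and of -0.33 after IR and -0.30 after sham surgery for Sesn2-KO against young WT. Their median without young IR library 1 was -0.30 on IR in young hearts and -0.22 for Sesn2-KO against young WT after IR. Pyruvate dehydrogenase joins glycolysis to the cycle, with Pdha1 and Pdhb encoding the decarboxylating subunits, Dlat the acetyltransferase and Pdhx the protein that binds Dld to the core. Pdhb (chr14:8165996-8173025, - strand, GRCm38) had 704, 619 and 593 CPM in Sesn2-KO IR hearts and 691, 734 and 637 CPM in Sesn2-KO sham hearts. In aged hearts Pdhb had 776, 768 and 707 CPM after IR and 854, 906 and 843 CPM after sham surgery. In young hearts Pdhb had 805, 742 and 666 CPM after IR and 870.5, 927 and 911 CPM after sham surgery. Sesn2-KO sham lay below young sham, and IR below sham in aged and in young hearts, without overlap, while IR and sham overlapped in Sesn2-KO hearts. Its fold change of -0.39 ± 0.11 for Sesn2-KO against young WT after sham surgery had the lowest adjusted p of any member in any comparison, 0.0518 by edgeR. On IR in young hearts it had -0.31 ± 0.11 (adjusted p = 0.115).

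Dlat had 429, 383 and 444 CPM in Sesn2-KO IR hearts and 420.1, 477 and 503 CPM in Sesn2-KO sham hearts. In aged hearts Dlat had 499.7, 467 and 476 CPM after IR and 605, 551 and 557 CPM after sham surgery. In young hearts Dlat had 542, 512 and 479 CPM after IR and 623, 572 and 579 CPM after sham surgery. Sesn2-KO lay below young WT after either surgery, and IR below sham in aged and in young hearts, without overlap. Sesn2-KO against young WT gave -0.32 ± 0.10 after IR and -0.34 ± 0.10 after sham surgery (adjusted p = 0.216 and 0.0720). On IR the fold changes of Dlat were -0.21 ± 0.10 in Sesn2-KO, -0.24 ± 0.10 in aged and -0.23 ± 0.10 in young hearts, and the difference between Sesn2-KO and young WT responses was 0.02 ± 0.15, or 0.09 without young IR library 1.

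Pdha1 (chrX:160122209-160138413, - strand, GRCm38) had 999.7, 988 and 1229.5 CPM in Sesn2-KO IR hearts and 1141, 1273 and 1493 CPM in Sesn2-KO sham hearts. In aged hearts Pdha1 had 1243, 1299 and 1446 CPM after IR and 1657, 1419 and 1524 CPM after sham surgery. In young hearts Pdha1 had 1465, 1248 and 1347 CPM after IR and 1626, 1357 and 1438 CPM after sham surgery. Sesn2-KO IR lay below young IR without overlap, and IR overlapped sham in all 3 kinds of heart. The fold change was -0.37 ± 0.14 for Sesn2-KO against young WT once both had IR (adjusted p = 0.267). On IR it was -0.34 ± 0.14 in Sesn2-KO, -0.19 ± 0.14 in aged and -0.14 ± 0.14 in young hearts (adjusted p = 0.267, 0.422 and 0.624 by edgeR), and -0.23 in young hearts without young IR library 1.

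Pcx, which refills the cycle with oxaloacetate, had a positive fold change on IR in young hearts, unlike the dehydrogenase subunits. It had 47.8, 43.4 and 55.3 CPM in Sesn2-KO IR hearts and 52.2, 63.9 and 65.3 CPM in Sesn2-KO sham hearts. In aged hearts it had 52.2, 64.8 and 50.4 CPM after IR and 68.5, 62.4 and 61.9 CPM after sham surgery. In young hearts it had 73.1, 50.2 and 57.4 CPM after IR and 59.8, 45.0 and 54.2 CPM after sham surgery. Its difference between Sesn2-KO and young WT responses to IR was -0.53 ± 0.23 (adjusted p = 0.882), or -0.34 without young IR library 1. On IR in young hearts its fold change was 0.17 ± 0.16, and -0.02 without that library. The opposite-strand gene Lrfn4 overlaps Pcx and held counts equal to 16.4% to 46.5% of those of Pcx. The strand setting of the authors' counting is not stated in the labels, so reads of the 2 genes may not be told apart.

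**Figure D4:**
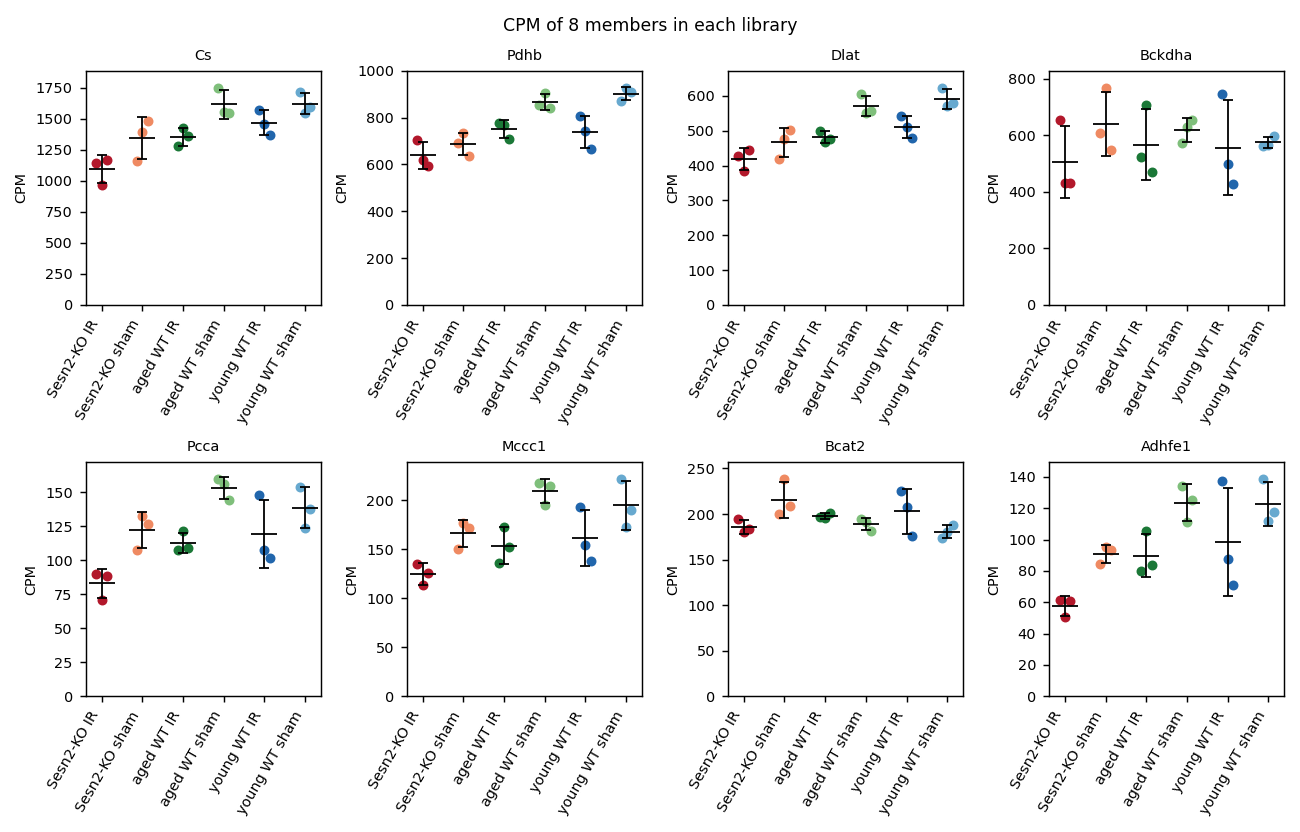
CPM (vertical axes, linear from 0) of 8 members in the 18 libraries by group (horizontal axes). Points are libraries, bars the mean and SD of 3. Cs, Dlat, Pcca and Adhfe1 in Sesn2-KO IR libraries lie below all young WT IR libraries, Bckdha overlaps in all groups, and Bcat2 is higher in all Sesn2-KO sham than in all young WT sham libraries.

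The 6 genes of the first branched-chain steps had a median fold change on IR of -0.39 in Sesn2-KO, -0.18 in aged and -0.07 in young hearts. For Sesn2-KO against young WT their median was -0.33 after IR and -0.13 after sham surgery, with 6 and 3 of 6 negative. Leaving out young IR library 1 gave their median as -0.39 on IR in young hearts and -0.10 for Sesn2-KO against young WT after IR. Bcat2 is the mitochondrial aminotransferase that removes the amino group of leucine, isoleucine and valine. It had 195, 179.9 and 184 CPM in Sesn2-KO IR hearts and 201, 238 and 209 CPM in Sesn2-KO sham hearts. In aged hearts Bcat2 had 197, 195 and 201 CPM after IR and 194, 192 and 181 CPM after sham surgery. In young hearts Bcat2 had 225, 207 and 176 CPM after IR and 174, 179.9 and 188 CPM after sham surgery. All IR libraries were below all sham libraries in Sesn2-KO hearts and above them in aged hearts, and all Sesn2-KO sham libraries were above all young sham libraries. The fold change on IR was -0.27 ± 0.11 in Sesn2-KO (adjusted p = 0.269), 0.08 ± 0.11 in aged (adjusted p = 0.699) and 0.15 ± 0.11 in young hearts (adjusted p = 0.487), or 0.04 in young hearts without young IR library 1. The difference between the Sesn2-KO and young WT responses was -0.41 ± 0.15, with an unadjusted p of 0.0148, the lowest of the 43, and an adjusted p of 0.753 by edgeR. Sesn2-KO against young WT was 0.25 ± 0.11 after sham surgery (adjusted p = 0.201).

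The branched-chain ketoacid dehydrogenase commits the carbon skeletons to breakdown, and its decarboxylating subunits are encoded by Bckdha and Bckdhb. Bckdha (chr7:25629946-25658981, - strand, GRCm38) had 652, 429.5 and 431 CPM in Sesn2-KO IR hearts and 608, 767 and 546 CPM in Sesn2-KO sham hearts. In aged hearts Bckdha had 521, 708 and 468 CPM after IR and 573, 627 and 654 CPM after sham surgery. In young hearts Bckdha had 746, 496 and 427 CPM after IR and 563, 564 and 596 CPM after sham surgery. The groups overlapped in all comparisons. The fold change on IR was -0.39 ± 0.23 in Sesn2-KO, -0.11 ± 0.23 in aged and -0.06 ± 0.23 in young hearts (adjusted p = 0.440, 0.812 and 0.920 by edgeR). For Sesn2-KO against young WT it was -0.18 ± 0.23 after IR and 0.15 ± 0.23 after sham surgery. Young WT IR library 1 held the highest of the 3 young IR values. Without it the fold change was 0.12 for Sesn2-KO against young WT after IR and -0.36 on IR in young hearts.

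Bckdhb had 71.1, 50.2 and 51.4 CPM in Sesn2-KO IR hearts and 123, 82.2 and 61.0 CPM in young IR hearts, with overlap and a fold change of -0.66 ± 0.22 (adjusted p = 0.227). Without young IR library 1, which held the 123 CPM, it was -0.32. Dbt, the acyltransferase core of the complex, had a fold change of -0.45 ± 0.19 on IR in aged hearts (adjusted p = 0.162) and of -0.29 ± 0.19 in Sesn2-KO hearts (adjusted p = 0.497).

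The complex is switched off by the kinase Bckdk and switched on by the phosphatase Ppm1k. Ppm1k had 132, 70.7 and 77.1 CPM in Sesn2-KO IR hearts and 118, 161 and 126 CPM in Sesn2-KO sham hearts. In aged hearts Ppm1k had 95.3, 142 and 96.9 CPM after IR and 173, 139 and 193 CPM after sham surgery. In young hearts Ppm1k had 170.3, 109 and 82.5 CPM after IR and 176, 172 and 158 CPM after sham surgery. In each IR group 1 library reached into the sham range and the other two were lower. Its fold change was -0.59 ± 0.28 in Sesn2-KO, -0.58 ± 0.27 in aged and -0.49 ± 0.27 in young hearts (adjusted p = 0.338, 0.216 and 0.328 by edgeR), and -0.86 in young hearts without young IR library 1. Limma voom, which gives libraries unequal weights, called it lower in all 3. Bckdk had 147, 122 and 138 CPM in Sesn2-KO IR hearts and 154, 187 and 170.2 CPM in Sesn2-KO sham hearts, which do not overlap. Its fold change on IR was -0.38 ± 0.13 in Sesn2-KO hearts (adjusted p = 0.228), and -0.09 ± 0.13 in aged and -0.04 ± 0.13 in young hearts, or -0.21 in young hearts without young IR library 1.

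The 11 genes of the later steps had negative fold changes on IR throughout, in 11 of 11 in Sesn2-KO, aged and young hearts alike, with medians of -0.44, -0.31 and -0.23, and -0.43 in young hearts without young IR library 1. Their summed level was 2422.6 ± 221.8 CPM in Sesn2-KO IR hearts and 3093.6 ± 274.2 CPM in Sesn2-KO sham hearts, 2997.4 ± 240.7 CPM in aged IR hearts and 3565.4 ± 170.0 CPM in aged sham hearts, and 2934.3 ± 590.0 CPM in young IR hearts and 3324.8 ± 248.7 CPM in young sham hearts (SD, n = 3 each). After sham surgery 9 of the 11 had a positive fold change in aged against young WT hearts, with a median of 0.11. Non-overlapping lower values on IR were found for 4 of them in Sesn2-KO, 9 in aged and 0 in young hearts, against 5.49%, 13.8% and 9.63% of all genes. The alpha subunit of propionyl-CoA carboxylase, through which carbon of valine and isoleucine enters the cycle, is encoded by Pcca (chr14:122534324-122891100, + strand, GRCm38). Pcca had 89.6, 70.9 and 88.5 CPM in Sesn2-KO IR hearts and 108, 132 and 127 CPM in Sesn2-KO sham hearts. In aged hearts Pcca had 108, 122 and 109 CPM after IR and 159.7, 156 and 144 CPM after sham surgery. In young hearts Pcca had 148, 108 and 102 CPM after IR and 154, 124 and 138 CPM after sham surgery. All Sesn2-KO IR libraries lay below all Sesn2-KO sham and all young IR libraries, and all aged IR libraries below all aged sham libraries.

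The fold change of Pcca was -0.61 ± 0.15 on IR in Sesn2-KO hearts (adjusted p = 0.199), -0.43 ± 0.15 in aged hearts (adjusted p = 0.0986) and -0.23 ± 0.15 in young hearts (adjusted p = 0.428). For Sesn2-KO against young WT after IR, Pcca had -0.56 ± 0.15 (adjusted p = 0.139). The difference between the Sesn2-KO and young WT responses was -0.38 ± 0.22 (adjusted p = 0.955 by edgeR). Without young IR library 1 the fold change of Pcca was -0.45 on IR in young hearts and -0.35 for Sesn2-KO against young WT after IR, and the difference of responses was -0.17. The gene Ggact lies on the opposite strand of Pcca and held counts equal to 12.8% to 24.9% of those of Pcca. Pccb, the beta subunit, whose promoter window is printed above, had -0.35 ± 0.17 on IR in Sesn2-KO hearts (adjusted p = 0.353).

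On the leucine branch, isovaleryl-CoA dehydrogenase (Ivd), methylcrotonyl-CoA carboxylase (Mccc1 and Mccc2) and methylglutaconyl-CoA hydratase (Auh) act in turn. Mccc1 had 135, 114 and 126 CPM in Sesn2-KO IR hearts and 150.2, 176 and 172 CPM in Sesn2-KO sham hearts. In aged hearts Mccc1 had 137, 173 and 152 CPM after IR and 217, 195 and 215 CPM after sham surgery. In young hearts Mccc1 had 193, 154 and 138 CPM after IR and 222, 173 and 190.4 CPM after sham surgery. IR lay below sham without overlap in Sesn2-KO and in aged hearts, at -0.46 ± 0.15 in Sesn2-KO hearts (adjusted p = 0.210) and -0.43 ± 0.15 in aged hearts (adjusted p = 0.0886). The groups overlapped in young hearts, at -0.28 ± 0.15 (adjusted p = 0.294), or -0.46 without young IR library 1. Auh had 101, 82.1 and 92.6 CPM in Sesn2-KO IR hearts and 111, 139 and 112 CPM in Sesn2-KO sham hearts, without overlap, with a fold change of -0.45 ± 0.15 (adjusted p = 0.215). Ivd had 245, 229 and 322 CPM in Sesn2-KO IR hearts and 316, 396 and 482 CPM in Sesn2-KO sham hearts, which overlap, with a fold change of -0.64 ± 0.21 (adjusted p = 0.219 by edgeR).

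On the valine branch, Hibch, the hydroxyisobutyryl-CoA hydrolase, had 136, 106 and 129 CPM in Sesn2-KO IR hearts and 120.2, 151 and 136 CPM in Sesn2-KO sham hearts. In young hearts Hibch had 176, 148 and 131 CPM after IR and 186, 182 and 175 CPM after sham surgery. All Sesn2-KO sham libraries lay below all young sham libraries, at -0.42 ± 0.13 (adjusted p = 0.0754 by edgeR). Aldh6a1, methylmalonate semialdehyde dehydrogenase, had a fold change of -0.66 ± 0.21 in Sesn2-KO against young WT IR hearts (adjusted p = 0.214), with 174, 150.2 and 228 CPM in Sesn2-KO IR hearts and 363, 220.2 and 261 CPM in young IR hearts, which overlap. The 363 CPM were in young IR library 1, without which the fold change was -0.40. Acadsb, the short branched-chain acyl-CoA dehydrogenase of the isoleucine branch, Hibadh, hydroxyisobutyrate dehydrogenase, and Acat1, the mitochondrial acetoacetyl-CoA thiolase, did not pass the test on IR in Sesn2-KO hearts. Their fold changes were -0.31 ± 0.13, -0.29 ± 0.13 and -0.34 ± 0.15 (adjusted p = 0.295, 0.307 and 0.295 by edgeR).

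Adhfe1 had the lowest fold change of the 43 on IR in Sesn2-KO hearts and in Sesn2-KO against young WT hearts after either surgery. It encodes a mitochondrial hydroxyacid-oxoacid transhydrogenase that couples gamma-hydroxybutyrate oxidation to the reduction of oxoglutarate. Adhfe1 (chr1:9547948-9580673, + strand, GRCm38) had 61.4, 50.5 and 60.9 CPM in Sesn2-KO IR hearts and 84.6, 95.5 and 93.1 CPM in Sesn2-KO sham hearts. In aged hearts Adhfe1 had 80.0, 105 and 83.6 CPM after IR and 134, 111 and 125 CPM after sham surgery. In young hearts Adhfe1 had 137, 87.5 and 70.8 CPM after IR and 139, 112 and 117 CPM after sham surgery. Every Sesn2-KO IR library lay below every library of the other 5 groups. Sesn2-KO against young WT gave a fold change of -0.82 ± 0.20 after IR and -0.43 ± 0.20 after sham surgery (adjusted p = 0.0966 and 0.257). On IR the fold change was -0.71 ± 0.20 in Sesn2-KO, -0.45 ± 0.20 in aged and -0.33 ± 0.20 in young hearts (adjusted p = 0.203, 0.188 and 0.389 by edgeR). The difference between the Sesn2-KO and young WT responses was -0.39 ± 0.28 (adjusted p = 1.00). Adhfe1 without young IR library 1 had -0.68 on IR in young hearts and -0.47 for Sesn2-KO against young WT after IR, and the difference of responses was -0.04.

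The aspartate transaminases are part of the malate-aspartate shuttle, which passes reducing power between cytosol and mitochondria. Got2, the mitochondrial form, had 592, 556 and 681 CPM in Sesn2-KO IR hearts and 839.8, 770.2 and 798 CPM in young IR hearts, without overlap, with a fold change of -0.43 ± 0.12 (adjusted p = 0.164). Got1, the cytosolic form, had 641, 699.8 and 739 CPM in Sesn2-KO IR hearts and 979.8, 826 and 766 CPM in young IR hearts, also without overlap, with a fold change of -0.34 ± 0.12 (adjusted p = 0.258). On IR in young hearts the fold changes were -0.10 ± 0.12 for Got2 and -0.05 ± 0.12 for Got1, and in Sesn2-KO hearts -0.31 ± 0.12 and -0.29 ± 0.12. Leaving out young IR library 1 gave young fold changes of -0.15 for Got2 and -0.18 for Got1, and Got1 in Sesn2-KO against young WT hearts after IR had -0.21.

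Other genes of these pathways, in 5 lists, were called in some comparisons. Over all genes edgeR called 5.36% higher and 2.24% lower on IR in aged hearts and 4.17% higher and 1.9% lower in young hearts. For Sesn2-KO against young WT it called 0.31% higher and 0.123% lower after IR, and 3.32% higher and 1.79% lower after sham surgery. Slc25a13 encodes citrin, the transporter that exchanges mitochondrial aspartate for glutamate. It had 116, 95.7 and 126 CPM in Sesn2-KO IR hearts and 121, 153 and 153 CPM in Sesn2-KO sham hearts. In aged hearts Slc25a13 had 141, 134 and 144 CPM after IR and 268, 233 and 238 CPM after sham surgery. In young hearts Slc25a13 had 155, 191 and 163 CPM after IR and 271, 234 and 214 CPM after sham surgery. All aged and young IR libraries lay below all sham libraries of the same age. It fell on IR in aged hearts (-0.81 ± 0.13, adjusted p = 0.00182) and in young hearts (-0.52 ± 0.13, adjusted p = 0.0248). It was lower in Sesn2-KO than in young WT hearts after sham surgery (-0.75 ± 0.13, adjusted p = 0.00303) and after IR (-0.62 ± 0.13, adjusted p = 0.0448). IR in Sesn2-KO hearts gave -0.39 ± 0.13 (adjusted p = 0.214 by edgeR), and the Sesn2-KO minus young difference of responses was 0.12 ± 0.18 (adjusted p = 1.00). Leaving out 1 library at a time kept 6 of 6 calls on IR in aged hearts and 6 of 6 for Sesn2-KO against young WT after sham surgery. It kept 3 of 6 on IR in young hearts, where the call was lost without young sham 1, young sham 2 or young IR 3 at adjusted p-values up to 0.116. It kept 1 of 6 in Sesn2-KO against young WT IR hearts, without Sesn2-KO IR 3, with adjusted p-values up to 0.245 in the other 5. Of 9 other settings (other scalings, filters, tools and covariates, the compared groups alone, and the libraries without the 6 in which long transcripts ran high) all kept the aged IR call and the genotype call after sham surgery. The young IR call was kept in 7 of 9 and lost with the compared groups alone (adjusted p = 0.106) and without the 6 libraries (0.280). The genotype call after IR was kept in 5 of 9, with losses that included no filter on low counts (adjusted p = 0.0637), the compared groups alone (0.399) and the fit without the 6 libraries (0.0686).

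**Figure D5:**
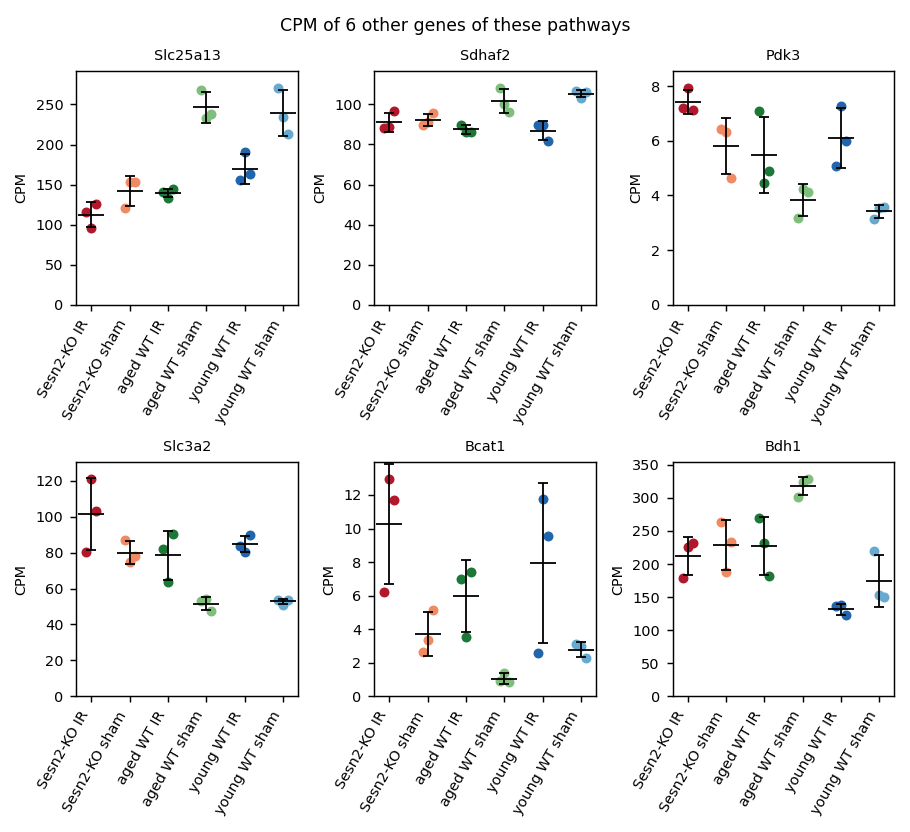
CPM (vertical axes, linear from 0) of 6 further genes of these pathways in the 18 libraries by group (horizontal axes). Points are libraries, bars the mean and SD of 3. Slc25a13 lies at 214 to 271 CPM in WT sham hearts and at 95.7 to 191 CPM in the other 4 groups, and Slc3a2 lies at 47.4 to 54.4 CPM in WT sham hearts and at 63.6 to 121 CPM in the others.

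In the list of 15 other cycle enzymes, assembly factors and carriers, which includes Slc25a13, 2 genes were called lower on IR in young hearts, 1 in aged hearts and 0 in Sesn2-KO hearts. There 1 gene was called lower in Sesn2-KO than in young WT hearts after either surgery. The second call on IR in young hearts was Sdhaf2, an assembly factor of succinate dehydrogenase, with 89.6, 89.5 and 81.5 CPM in young IR hearts and 107, 103 and 106 CPM in young sham hearts. It fell by 0.30 ± 0.08 on the log2 scale (adjusted p = 0.0443), and the call was kept only without young IR 1 among the 6 ways of leaving out a library, with adjusted p-values up to 0.190 without the others. It was kept in 5 of the 9 other settings, with losses that included no filter on low counts (adjusted p = 0.101), the compared groups alone (0.203) and the fit without the 6 libraries (0.272). The list's median on IR was -0.27 in Sesn2-KO, -0.20 in aged and -0.15 in young hearts, and -0.31 in young hearts without young IR library 1.

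In the list of 9 genes for pyruvate uptake and the control of pyruvate dehydrogenase, 1 was called higher on IR in young hearts and 1 in Sesn2-KO against young WT after sham surgery. None was called on IR in aged or Sesn2-KO hearts. Both calls were Pdk3, a pyruvate dehydrogenase kinase, with 6.45, 6.33 and 4.63 CPM in Sesn2-KO sham hearts, 5.08, 7.27 and 6.01 CPM in young IR hearts, and 3.16, 3.53 and 3.57 CPM in young sham hearts. It rose by 0.82 ± 0.20 on IR in young hearts (adjusted p = 0.0254) and was higher by 0.76 ± 0.20 in Sesn2-KO sham hearts (adjusted p = 0.0399). Each call was kept in 1 of 6 fits that left out a library, without young IR 1 on IR and without Sesn2-KO sham 3 for the genotype, with adjusted p-values up to 0.113 and 0.146 without the others. Of the 9 other settings, the IR call was kept in 7 and lost with the compared groups alone (adjusted p = 0.113) and without the 6 libraries (0.252). The genotype call was kept in 5 and lost with upper quartile scaling (adjusted p = 0.0530), no filter on low counts (0.0600), the compared groups alone (0.0908) and without the 6 libraries (0.155). Pdk2, which was more abundant, had 226 to 313 CPM in Sesn2-KO IR and 370 to 435 CPM in Sesn2-KO sham hearts. In aged hearts Pdk2 had 363 to 468 CPM after IR and 520 to 611 CPM after sham surgery. Pdk4 had 739.5 to 979 CPM in aged IR and 140 to 611 CPM in aged sham hearts. Such non-overlap was seen in 5.49% (Sesn2-KO, lower), 13.8% (aged, lower) and 14.8% (aged, higher) of all genes. IR and sham otherwise overlapped for Pdk1, Pdk2 and Pdk4.

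In the list of 16 other genes of branched-chain amino acid, propionate and ketone handling, 1 was called higher on IR in young hearts, 2 higher and 1 lower in aged hearts and 0 in Sesn2-KO hearts. Slc3a2, the heavy chain of the amino acid exchanger that takes up leucine, had 80.6, 121 and 103 CPM in Sesn2-KO IR hearts and 87.1, 74.6 and 78.4 CPM in Sesn2-KO sham hearts. In aged hearts Slc3a2 had 82.0, 63.6 and 90.3 CPM after IR and 53.1, 54.4 and 47.4 CPM after sham surgery. In young hearts Slc3a2 had 84.0, 80.5 and 89.7 CPM after IR and 53.7, 51.1 and 53.6 CPM after sham surgery. In aged and in young WT hearts no IR library overlapped the sham libraries, whereas Sesn2-KO IR library 1 lay within the Sesn2-KO sham range. It rose on IR by 0.62 ± 0.13 in aged hearts (adjusted p = 0.0125) and by 0.66 ± 0.13 in young hearts (adjusted p = 0.00938). It was higher by 0.60 ± 0.13 in Sesn2-KO than in young WT sham hearts (adjusted p = 0.0173). The young IR call was kept in 6 of 6 fits without 1 library, and the other two in 2 of 6 each, with adjusted p-values up to 0.0732 and 0.0725 where they were lost. In aged hearts it was lost when replicate 1 or 3 of either group was left out, and for Sesn2-KO without any of the 3 young sham libraries or Sesn2-KO sham 1. Each of the 3 calls was kept in 8 of the 9 other settings and lost without the 6 libraries, at adjusted p = 0.190 on IR in aged hearts, 0.207 on IR in young hearts and 0.158 for Sesn2-KO against young WT.

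Bcat1, the cytosolic branched-chain aminotransferase, had 7.01, 3.51 and 7.42 CPM in aged IR hearts and 0.899, 1.41 and 0.841 CPM in aged sham hearts, and rose by 2.50 ± 0.50 (adjusted p = 0.00769). The aged sham libraries held only 13, 19 and 9 counts of Bcat1, so its fold change rests on a baseline of few counts. The call was lost without aged sham 1 (adjusted p = 0.0589) and, among the 9 other settings, without the 6 libraries (0.154). Mmab, an enzyme of cobalamin metabolism, had 41.4, 43.1 and 40.2 CPM in aged IR hearts and 83.5, 61.4 and 61.7 CPM in aged sham hearts, and fell by 0.71 ± 0.18 on the log2 scale (adjusted p = 0.0231). Leaving out aged sham 1, aged IR 1 or aged IR 3 ended that call, at adjusted p-values up to 0.147, as did, among the 9 other settings, leaving out the 6 libraries (0.137). Bdh1, the mitochondrial hydroxybutyrate dehydrogenase of ketone oxidation, was the 1 gene of the 5 lists called with age. It had 302, 324 and 328 CPM in aged sham hearts and 219, 153 and 149.8 CPM in young sham hearts, higher by 0.88 ± 0.17 (adjusted p = 0.0493). The call was kept only without young sham 1 among the fits that left out a library, with adjusted p-values up to 0.325 without the others. It was kept in 5 of the 9 other settings, with losses that included DESeq2 size factors (adjusted p = 0.0532), the compared groups alone (0.105) and the fit without the 6 libraries (0.0836). The list's median on IR was -0.25 in Sesn2-KO, -0.09 in aged and -0.16 in young hearts, and -0.35 in young hearts without young IR library 1.

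Lipoate is the cofactor of all 3 dehydrogenase complexes, and none of the 4 genes of its synthesis and attachment was called in any comparison by edgeR. Their median on IR was -0.13 in Sesn2-KO, -0.09 in aged and -0.08 in young hearts, with 1, 0 and 0 of the 4 lower at an unadjusted p below 0.05, against 6.52%, 9.28% and 8.18% of all genes. Of 10 transcriptional regulators of oxidative metabolism, 0 were called by edgeR, with medians on IR of -0.48 in Sesn2-KO, -0.45 in aged and -0.27 in young hearts (-0.34 without young IR library 1). At an unadjusted p below 0.05, 4, 3 and 2 of the 10 were lower, against the same shares of all genes, and 0 were higher. Among them Esrra, the oestrogen-related receptor alpha, had 164, 183 and 216 CPM in Sesn2-KO IR hearts and 229, 193 and 263 CPM in Sesn2-KO sham hearts, with a fold change of -0.34 ± 0.12 (adjusted p = 0.233). Nrf1, nuclear respiratory factor 1, had fold changes on IR of 0.03 ± 0.12 in Sesn2-KO, 0.09 ± 0.12 in aged and -0.09 ± 0.12 in young hearts.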

How the data were processed

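Left-ventricle RNA was made into libraries with a TruSeq stranded mRNA kit and sequenced as paired ends on a NextSeq 500, per the labels' protocols. The deposited values are raw counts per gene symbol that the authors made with HTSeq after alignment with Bowtie2 and TopHat2 to mm10, with FastQC and SAMtools also used, per the submitters' processing notes. The sources used here give no versions, annotation or counting settings (strand included). Unassigned reads (6.12% to 9.06% without a feature, 0.631% to 0.759% ambiguous) were left out of all totals. CPM is a gene's count scaled to the library's total of gene counts. All 18 libraries entered 1 edgeR 4.0.16 quasi-likelihood fit in R 4.3.3 (TMM scaling, filterByExpr, 6 group means), with 9 contrasts and Benjamini-Hochberg adjustment over all 13859 genes tested, and a call at an adjusted p below 0.05. TMM factors of 0.951 to 1.046 enter the fold changes but not the CPM. DESeq2 1.42.0, limma 3.58.1 voom, other scalings and filters and leaving out libraries were alternatives. Summed over genes, replicates differed beyond counting error (chi-square per degree of freedom of 8.48 to 48.3). That sum says little of genes with few counts, such as Bcat1, Pdk3 and Clec4d. Gene positions and transcript lengths are from GENCODE M21, where 23334 of the symbols (95.5%) matched once, and promoters from RefSeq on GRCm38.p6.

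The members and lists were chosen with earlier results of these data known. Members named were those called, up to the 6 with the smallest p per step, and always Cs, Pdha1 and Bckdha. In the other lists up to 3 genes with the smallest p per comparison were eligible. Genes named beyond these rules were chosen after their values were seen.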

Additional observations from a re-analysis of the deposited data

Results flagged for a closer look

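In 1 of the 8 neutrophil markers the response to IR differed between Sesn2-KO and young WT hearts by a direct test. That test called 0.0577% of all genes. Clec4d, a C-type lectin of myeloid cells, had 14.3, 14.02 and 14.5 CPM in Sesn2-KO IR hearts and 7.03, 8.26 and 9.26 CPM in Sesn2-KO sham hearts, against 6.75, 11.7 and 11.2 CPM in young IR hearts and 0.421, 1.02 and 0.243 CPM in young sham hearts. The fold change on IR was 0.75 ± 0.28 in Sesn2-KO hearts (adjusted p = 0.241) and 4.09 ± 0.37 in young hearts (adjusted p = 2.76e-05), and the difference was -3.35 (adjusted p = 0.0111 by edgeR). The young sham libraries held only 6, 13 and 3 counts of Clec4d, so the young fold change and the difference rest on a baseline of few counts. None of the 43 genes of the cycle and of branched-chain breakdown differed by the same test.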

How the results depend on the processing

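The count of members called, 0 in all 9 comparisons by edgeR with TMM scaling, moved under some alternatives. DESeq2 called 1 member on IR in each of Sesn2-KO, aged and young hearts, and for Sesn2-KO against young WT 6 after IR and 5 after sham surgery. Limma voom called 16, 10 and 13 on IR in Sesn2-KO, aged and young hearts, and 2 after IR and 10 after sham surgery for Sesn2-KO against young WT. A length covariate in edgeR gave 2 on IR in young hearts, 1 in aged hearts and 5 for Sesn2-KO against young WT after sham surgery, against 5.86%, 5.63% and 5.32% of all genes called lower. The compared groups alone gave 1 on IR in aged hearts (2.42% of all genes lower), and DESeq2 size factors gave 1 for Sesn2-KO against young WT after sham surgery (2%). In these alternatives all calls were lower. The cause was not tested.

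Leaving out 1 library gave 0 to 5 calls on IR in young hearts (5 without young IR 1, against 2.89% of all genes lower) and 0 to 1 for Sesn2-KO against young WT after IR (1 without young IR 3, against 0.257%). The members' median ranged from -0.32 to -0.0905 on IR in young hearts, from -0.39 to -0.17 for Sesn2-KO and from -0.078 to 0.18 for aged against young WT after IR, and from -0.25 to 0.027 and -0.091 to 0.16 for the differences of Sesn2-KO and aged minus young responses. Without the 6 libraries in which long transcripts ran high, the medians on IR were -0.29 in Sesn2-KO, -0.16 in aged and -0.08 in young hearts, and 0 members were called.

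Among 149 pairs of a gene and a comparison 2084 values kept their sign and side of the threshold, 78 passed the threshold only under an alternative, 65 lost a call and 44 changed sign, all 44 with adjusted p-values of 0.202 or more. The 65 losses fell on the 13 calls of Slc25a13, Sdhaf2, Pdk3, Slc3a2, Bcat1, Mmab and Bdh1, over 195 fits. On IR in young hearts Pcx was -0.0098 by limma voom and -0.022 to 0.30 without 1 library. Without those 6 libraries Bckdha was 0.062, Bckdhb 0.12 and Ivd 0.029, and without 1 library Bckdha ranged from -0.36 to 0.11 and Bckdhb from -0.41 to 0.14. Bckdha on IR in aged hearts ranged from -0.33 to 0.017. For Sesn2-KO against young WT after sham surgery the length covariate gave Ogdh 0.017 and Bckdha -0.0034, limma voom gave Ivd -0.035, and without 1 library Ogdh ranged from -0.26 to 0.0197 and Ivd from -0.13 to 0.22. Bckdha for Sesn2-KO against young WT after IR ranged from -0.43 to 0.12. Without the same 6 libraries Nrf1 on IR in Sesn2-KO hearts was -0.018, Bckdk 0.0023 in aged and 0.019 in young hearts, Got1 0.035 in young hearts, and Dlat -0.0091 for the difference of Sesn2-KO and young responses. Sdhb on IR in aged hearts was -0.22 with the length covariate. Idh2 for Sesn2-KO against young WT after IR was -0.0082 by DESeq2 size factors and by the DESeq2 Wald test and -0.087 with the length covariate, and Slc25a13 for the difference of Sesn2-KO and young responses was -0.063 by limma voom. Without 1 library Nrf1 ranged from -0.033 to 0.13, Sdhb from -0.083 to 0.18, Bckdk in young hearts from -0.21 to 0.059, Got1 from -0.18 to 0.034, Idh2 from -0.13 to 0.23 and Dlat from -0.062 to 0.089.

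Same-numbered libraries did not deviate together throughout (correlations of deviations from -0.27 to 0.72), so the numbers were not taken to pair them. With the replicate block 1 member was called, Pdhb for Sesn2-KO against young WT after sham surgery (-0.40, adjusted p = 0.0454 by edgeR; 1.92% of all genes called lower). The block ended 3 calls, Sdhaf2 on IR in young hearts (adjusted p = 0.0532), Bdh1 with age after sham surgery (0.0503) and Slc25a13 for Sesn2-KO against young WT after IR (0.0548).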
